A study of Mus musculus with 8 samples.

Results

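The heat shock chaperone genes described here are the 10 mouse genes Hspa1a, Hspa1b, Dnajb1, Hsph1, Hspb1, Hspa8, Hsp90aa1, Hspd1, Hspe1 and Bag3. They were taken as a list by symbol, and 10 of 10 were found among the 37583 genes of the count files and passed the filter on low counts. RNA was sequenced from whole kidneys in 8 libraries, 4 per group. The libraries labelled knockout came from mice with a Six2Cre+ driver, TFAP2Afl/fl and TFAP2Bfl/WT alleles, so both copies of the AP-2 alpha gene and 1 copy of the AP-2 beta gene were floxed. The other 4 came from control littermates labelled WT, and whether those carried Cre or a floxed allele is not given in the labels, nor are age, sex or time of collection. Six2-driven Cre is known to act in nephron progenitors and hence in nephron epithelium, while stroma, vessels and the collecting duct descend from other cells.

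Chaperones bind unfolded protein and either hold it or refold it with ATP. In unstressed cells the transcription factor HSF1 is kept inactive by chaperones. Heat, oxidants, ischaemia or harsh handling load the chaperones with unfolded protein, HSF1 is released, forms trimers and binds heat shock elements, which are inverted repeats of the short unit GAA, in front of its target genes. In kidney, inducible HSP70 and the small heat shock proteins are known for their response to ischaemia and to the high osmolarity of the medulla.

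The members fall into 4 kinds by role. Hspa1a and Hspa1b encode the inducible HSP70 and Hspa8 its constitutive relative HSC70. Dnajb1, Hsph1 and Bag3 encode partners of HSP70: a J-domain protein that hands over clients, and a pair of factors that release the nucleotide. Hsp90aa1 encodes the inducible cytosolic HSP90 and Hspb1 a small ATP-independent holdase. Hspd1 and Hspe1 encode the HSP60 barrel of mitochondria and its HSP10 lid.

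RefSeq promoter windows on GRCm38.p6 were found for 8 of the 10 genes, and Hspa8 and Hsp90aa1 had no entry. A 2-unit heat shock element, searched as GAANNTTC or TTCNNGAA in the 250 bases before the annotated start, was present for 6 of these 8 genes: Hspa1a, Hspa1b, Hspb1, Hspd1, Hspe1 and Hsph1. Each of these letter strings reads the same on both strands. At least 1 match was held by 12.8% of all 32851 windows of this length. That share is per window, while the 8 genes have 11 windows between them, so the 2 figures are not alike. The 6 genes are also not independent, since the Hspa1a and Hspa1b windows are near-identical and Hspd1 and Hspe1 share a site. The 3-unit form, GAANNTTCNNGAA or its reverse complement TTCNNGAANNTTC, contains overlapping 2-unit matches and was present in 0.466% of all windows and in those of Hspd1 and Hspe1. A match is a string of letters and was not tested as a binding site.

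The first pair of sequences is shown because the inducible HSP70 genes are near-identical copies in their promoters as well as in their coding parts, and the Hspb1 window because this gene had the third widest separation among the members. Capitals mark the 2-unit elements, and each sequence runs 5′ to 3′ on the gene's strand and ends at the base before the start. Hspa1a lies at chr17:34972157-34972406 (minus strand), Hspa1b at chr17:34959239-34959488 (minus strand) and Hspb1 at chr5:135887669-135887918 (plus strand).
Hspa1a: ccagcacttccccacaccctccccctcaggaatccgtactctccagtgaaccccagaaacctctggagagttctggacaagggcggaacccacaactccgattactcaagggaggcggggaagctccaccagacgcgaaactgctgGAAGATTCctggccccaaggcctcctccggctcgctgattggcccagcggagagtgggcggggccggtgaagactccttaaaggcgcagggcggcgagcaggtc
Hspa1b: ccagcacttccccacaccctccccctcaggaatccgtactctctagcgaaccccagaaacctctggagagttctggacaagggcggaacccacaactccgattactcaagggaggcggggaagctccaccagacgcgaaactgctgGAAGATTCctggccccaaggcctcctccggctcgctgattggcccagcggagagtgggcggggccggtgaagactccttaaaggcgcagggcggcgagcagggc
Hspb1: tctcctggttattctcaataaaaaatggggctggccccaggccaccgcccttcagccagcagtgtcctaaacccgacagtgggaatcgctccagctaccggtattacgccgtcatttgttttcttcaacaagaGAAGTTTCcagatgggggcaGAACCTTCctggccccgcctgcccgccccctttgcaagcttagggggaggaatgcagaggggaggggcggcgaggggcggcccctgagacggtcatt

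The Hspa1a and Hspa1b windows differed at 3 of 250 bases (98.8% identity), and the element began 104 bases before the start in both. Over the coding part the genes differed at 8 of 1923 aligned bases (99.6% identity). Of all 50-base stretches of the Hspa1b coding sequence 82.3% also occur in Hspa1a, and of those of its whole transcript 62.3%. Reads that match both copies equally well carry no information on which gene they came from, and the files keep reads without a unique place on a line of their own. The levels of Hspa1a and Hspa1b below are therefore uncertain one by one, and both rest on the stretches in which the copies differ. The neighbouring Hspa1l is less alike (83.4% identity over its coding part), and had 0.444, 1.28, 0.519 and 0.802 CPM in knockout-labelled replicates 1 to 4 and 0.68, 0.313, 0.695 and 0.517 CPM in wildtype-labelled replicates 1 to 4.

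Shorter sites are shown for Hsph1 and for the shared promoter of Hspe1 and Hspd1, which lie head to head on chromosome 1. These genes carry elements but differed in their levels. As given below, knockout-labelled 2 and 4 were the 2 highest libraries for Hsph1 and not for Hspe1 and Hspd1. Dnajb1 and Bag3, whose windows held no match, also had these as their 2 highest libraries. The part of the elements in the levels was not tested. The Hsph1 site is at chr5:149636351-149636380 (minus strand) and the Hspe1 site at chr1:55088053-55088082 (plus strand), and the Hspe1 site also lies in the window of Hspd1 read from the other strand. By GENCODE M21 positions most of the Hsph1 site lies inside the Hsph1 gene, and the Hspe1 site inside the Hspd1 gene. The Hspe1 site holds 3 overlapping 2-unit matches that join into 2 matches of the 3-unit form, beginning 89 bases before the Hspe1 start.
Hsph1: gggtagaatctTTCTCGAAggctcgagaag
Hspe1: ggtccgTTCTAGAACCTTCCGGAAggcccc

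Levels are given as CPM, the reads of a gene scaled to the same total of gene reads in each library after TMM scaling, a correction for differences in library composition. Gene reads totalled 13871861 to 16629301 per library. The kidney marker Umod, uromodulin of the thick ascending limb, was high throughout. It was at 4524 ± 449 CPM with the knockout label and 3970 ± 287 CPM with the wildtype label (SD, n = 4 each). Other kidney markers were less even. Of 9 tested, knockout-labelled 2 and 4 were the 2 highest libraries for 2 and the 2 lowest for 1. Slc12a1 had 2382 and 2243 CPM in these and at most 1971 CPM in the others. Kap had 36507 and 26083 CPM in these and at least 37399 CPM in the others. Aqp2 had 683, 621, 241 and 763 CPM in knockout-labelled replicates 1 to 4. In wildtype-labelled replicates 1 to 4 it had 391, 291, 276 and 375 CPM (log2 difference 0.79, SE 0.31, edgeR adjusted p = 0.957). The part of such differences between kidney markers in the heat shock values was not tested. Nphs1 was scarce, at 1.77 to 7.69 CPM. The targeted genes were not lower in the libraries labelled knockout. Tfap2a was at 5.05 ± 0.99 CPM in these and at 4.22 ± 1.08 CPM in the wildtype-labelled libraries (log2 difference 0.26, SE 0.24), and Tfap2b at 80.0 ± 20.3 CPM in the knockout-labelled and 78.3 ± 20.5 CPM in the wildtype-labelled libraries. Whether the counted reads fall in the floxed exons cannot be read from gene totals. Group names below are therefore those of the labels, and every direction is drawn from them. No label states whether the libraries come from separate animals, so p-values measure the spread between libraries, which may be technical. In whole kidney, more RNA per cell and more cells of a type that holds the RNA cannot be told apart.

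Inducible HSP70 transcripts were high in the knockout-labelled libraries 2 and 4 and low in the other 6. Hspa1a (ENSMUSG00000091971, chromosome 17, 34969190 to 34972156 on GRCm38) had 6.47, 69.5, 6.9 and 156 CPM in knockout-labelled replicates 1 to 4, and 11.9, 3.63, 5.94 and 3.49 CPM in wildtype-labelled replicates 1 to 4. Replicates 2 and 4 of the knockout label stood 11.1 and 25 times above the wildtype-labelled mean, while replicates 1 and 3 lay within the range of the wildtype-labelled libraries, so the groups overlapped. The lower of the 2 high libraries was 5.84 times the highest of the other 6. Between the labels this came to a log2 difference of 3.26 with a standard error (SE) of 1.19 and a 95% interval of 0.42 to 6.11, and it did not pass the test (adjusted p = 0.957 by edgeR).

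Hspa1b (ENSMUSG00000090877, chromosome 17, 34956436 to 34959238 on GRCm38) had 30.8, 175, 16.4 and 363 CPM in knockout-labelled replicates 1 to 4, and 41.4, 11.8, 19.8 and 13.3 CPM in wildtype-labelled replicates 1 to 4. The order of the libraries was nearly that of Hspa1a, with knockout-labelled 4 first, knockout-labelled 2 next and wildtype-labelled 1 after them. It differed by 2.76 on the log2 scale (SE 1.06, 95% interval 0.22 to 5.31) and did not pass either (adjusted p = 0.957 by edgeR).

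Hspa1a held 17.3%, 28.4%, 29.6% and 30% of the reads of the pair in knockout-labelled replicates 1 to 4, and 22.3%, 23.5%, 23.0% and 20.8% in wildtype-labelled replicates 1 to 4. The Wilson 95% intervals were 27.0% to 29.8% in knockout-labelled 2 and 29.0% to 31.1% in knockout-labelled 4, and cover counting error only. Knockout-labelled 3, in which both genes were low, had a similar share (24.8% to 34.9%), so the share did not follow the level across libraries. Summed into 1 gene, the pair had 588, 3838, 314 and 7768 reads in knockout-labelled replicates 1 to 4, against 784, 247, 408 and 260 reads in wildtype-labelled replicates 1 to 4, and its log2 difference was 2.89 (edgeR adjusted p = 0.957). Hspa1a overlaps an exon of the antisense gene Gm20481 by 564 bases, and reads there may have been set aside as ambiguous, since the file names say that strand was not used. Gm20481 itself had at most 1 read per library.

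Hspa8 (ENSMUSG00000015656), the constitutive HSC70, varied far less. It had 57.7, 84.9, 73 and 98.5 CPM in knockout-labelled replicates 1 to 4 and 67.4, 65.5, 65 and 59 CPM in wildtype-labelled replicates 1 to 4. The same 2 libraries were highest, the lower of them at 1.16 times the next library, and the lowest of the 8 was knockout-labelled 1, so the groups overlapped. By label it differed by 0.29 on the log2 scale (SE 0.15, 95% interval -0.04 to 0.62; adjusted p = 0.957 by edgeR).

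**Figure D1:**
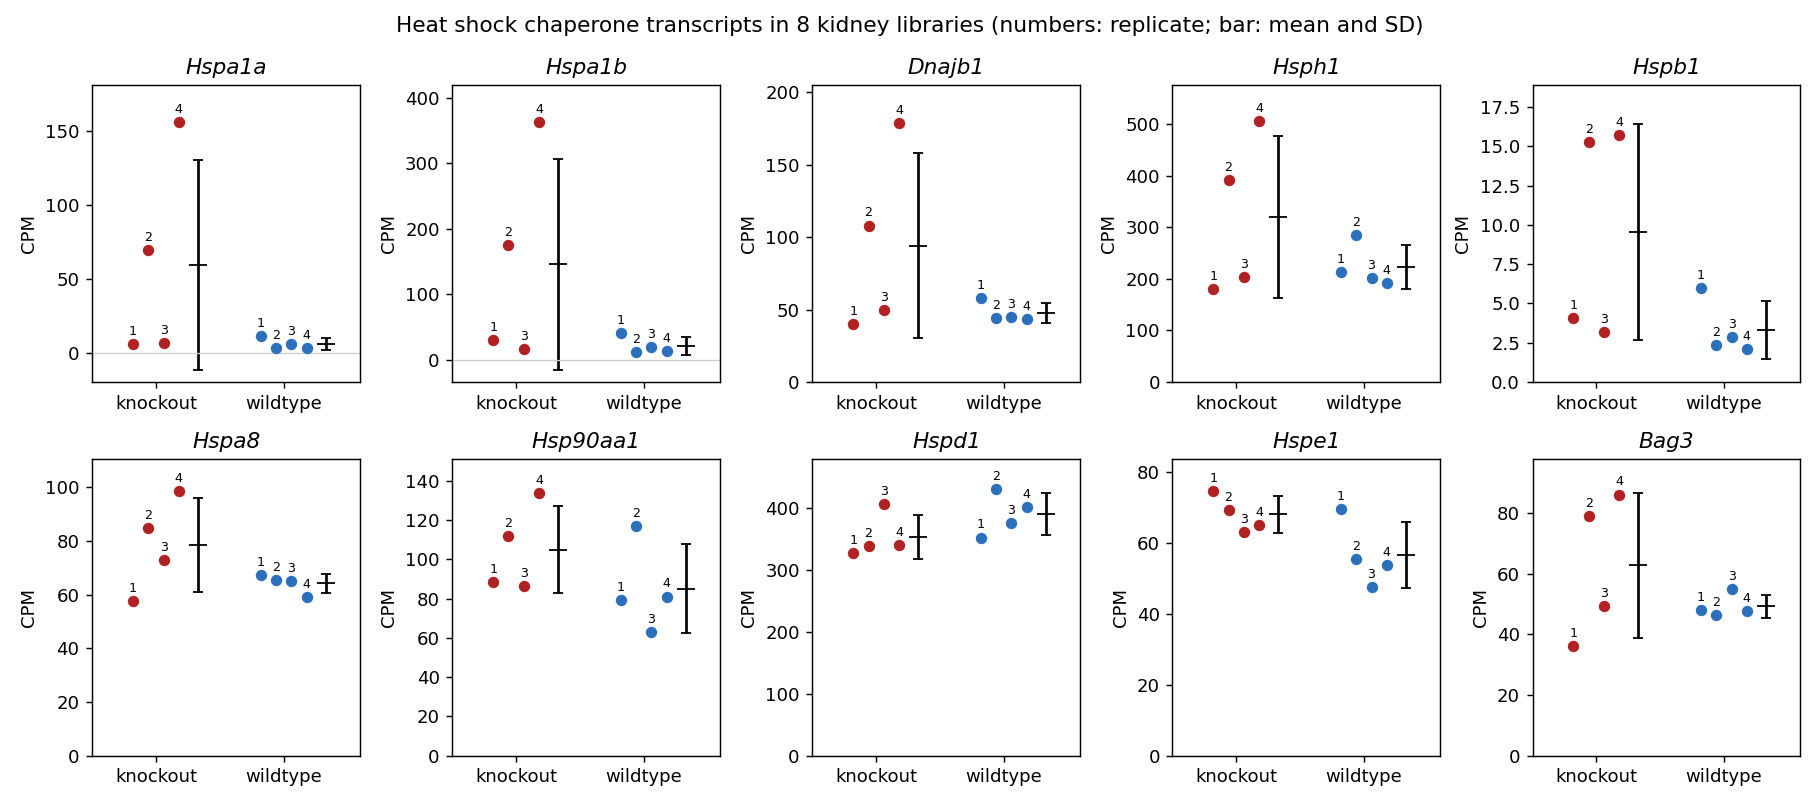
CPM of the 10 heat shock chaperone genes in each library, knockout-labelled (red, left) and wildtype-labelled (blue, right), on linear axes of different height. Points carry their replicate number and black marks are the mean and SD of 4 libraries. Knockout-labelled 2 and 4 stand apart for Hspa1a, Hspa1b, Dnajb1, Hsph1, Hspb1 and Bag3, and not for Hspd1 and Hspe1.

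Partners of HSP70 followed the same 2 libraries with smaller ratios. Dnajb1 (ENSMUSG00000005483, chromosome 8, 83608193 to 83612653 on GRCm38), the J-domain protein of the cytosol, had 39.9, 108, 49.4 and 179 CPM in knockout-labelled replicates 1 to 4, and 58.1, 43.8, 44.7 and 43.7 CPM in wildtype-labelled replicates 1 to 4. Knockout-labelled 2 and 4 were at 2.27 and 3.75 times the wildtype-labelled mean. Wildtype-labelled 1 stood above the other 3 wildtype-labelled libraries, which lay within about 1 CPM of each other, and knockout-labelled 1 was the lowest of all. Between the labels this came to 0.98 (SE 0.44, 95% interval -0.03 to 1.99) on the log2 scale, with an adjusted p of 0.957 by edgeR.

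Hsph1 (ENSMUSG00000029657), the HSP110 exchange factor, had 180, 392, 203 and 507 CPM in knockout-labelled replicates 1 to 4 and 213, 285, 202 and 192 CPM in wildtype-labelled replicates 1 to 4. It differed from the HSP70 genes in the library next to these, which was wildtype-labelled 2 rather than 1. Bag3 (ENSMUSG00000030847), which couples HSP70 to small heat shock proteins and to autophagy, had 36.3, 79.2, 49.3 and 86.2 CPM in knockout-labelled replicates 1 to 4 and 48, 46.3, 54.9 and 47.9 CPM in wildtype-labelled replicates 1 to 4. For both genes the 2 high libraries stood clear of the other 6, by 1.37 times for Hsph1 and 1.44 times for Bag3. By label the log2 differences were 0.52 (SE 0.32) for Hsph1 and 0.35 (SE 0.24) for Bag3, and neither passed the test (edgeR adjusted p = 0.957 for each).

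Hspb1 (ENSMUSG00000004951, chromosome 5, 135887919 to 135889563 on GRCm38), the small heat shock protein, was the scarcest member, with 32 to 240 reads per library. It had 4.06, 15.3, 3.19 and 15.7 CPM in knockout-labelled replicates 1 to 4, and 5.99, 2.32, 2.84 and 2.07 CPM in wildtype-labelled replicates 1 to 4. Unlike in Hspa1a, where knockout-labelled 4 was far above knockout-labelled 2, the 2 high libraries had nearly the same level, at 4.63 and 4.75 times the wildtype-labelled mean. Between the labels this came to 1.54 (SE 0.59, 95% interval 0.20 to 2.88) on the log2 scale, with an adjusted p of 0.957 by edgeR.

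Hsp90aa1 (ENSMUSG00000021270), the inducible HSP90, had 88.7, 112, 86.6 and 134 CPM in knockout-labelled replicates 1 to 4 and 79.5, 117, 62.9 and 81.1 CPM in wildtype-labelled replicates 1 to 4. Wildtype-labelled 2 lay between the 2 libraries that were high in the HSP70 genes, so these 2 were not set apart here. By label it differed by 0.31 on the log2 scale (SE 0.20, 95% interval -0.13 to 0.75; adjusted p = 0.957 by edgeR).

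The mitochondrial pair did not separate the 2 libraries. Hspd1 (ENSMUSG00000025980, chromosome 1, 55077835 to 55088243 on GRCm38) had 327, 339, 406 and 340 CPM in knockout-labelled replicates 1 to 4 and 352, 430, 376 and 401 CPM in wildtype-labelled replicates 1 to 4. Its partner Hspe1 (ENSMUSG00000073676, chromosome 1, 55088132 to 55091307 on GRCm38) had 74.7, 69.2, 63.1 and 65.1 CPM in knockout-labelled replicates 1 to 4 and 69.6, 55.4, 47.5 and 53.7 CPM in wildtype-labelled replicates 1 to 4. The highest libraries were wildtype-labelled 2 for Hspd1 and knockout-labelled 1 for Hspe1. Hspd1 was the 1 member with a negative log2 difference, -0.14 (SE 0.11, 95% interval -0.39 to 0.10), against 0.27 (SE 0.12) for Hspe1, and neither passed the test (edgeR adjusted p = 0.957 for each). The annotated exons of these genes overlap by 112 bases on opposite strands, and reads there may have been counted as ambiguous.

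**Figure D2:**
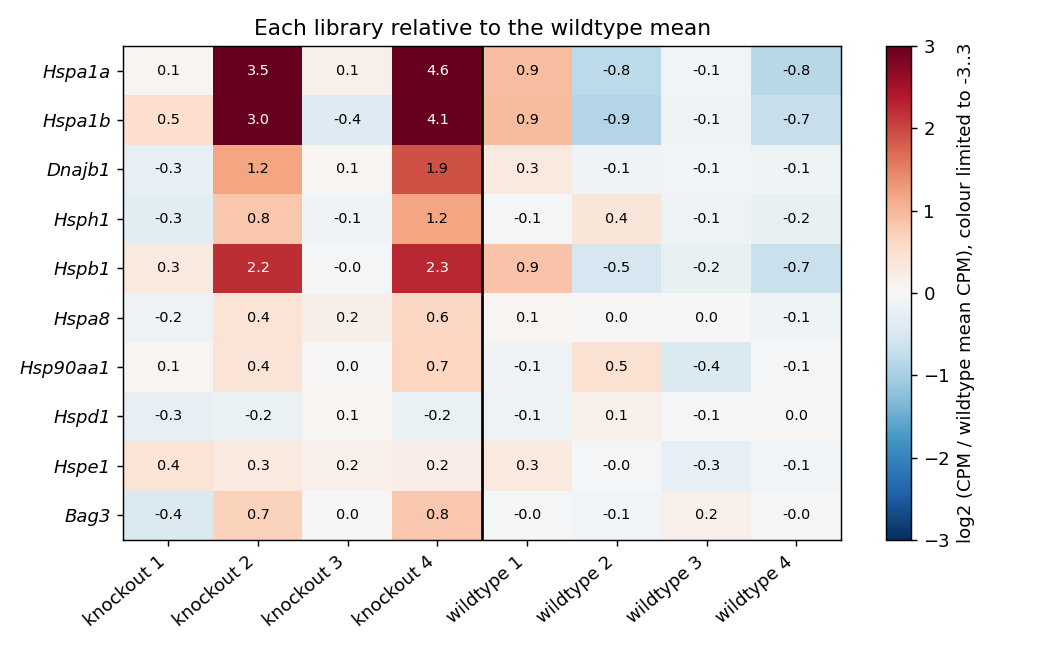
Each library's CPM divided by the wildtype-labelled mean, as log2, for the 10 genes (rows) and the 8 libraries (columns, knockout-labelled left of the line). Colour is limited to 3 on either side of 0. Hspa1a, Hspa1b and Hspb1 are dark red in knockout-labelled 2 and 4, and the Hspd1 and Hspe1 rows stay pale.

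Compared by label over all genes, 0 of the 10 genes passed edgeR's quasi-likelihood test, with 0% of the 14433 tested genes called (smallest adjusted p = 0.957). DESeq2 and limma-voom also called 0 of the 10; over all genes limma-voom called 0 and DESeq2 4, or 0.0163% of those it tested. At an unadjusted p under 0.05 there were 3 of 10 members, Hspa1a, Hspa1b and Hspb1, where 4.00% of all tested genes reached that level and 2.17% did so as higher in the libraries labelled knockout. Because Hspa1a and Hspa1b share sequence, these 3 are not independent, and with the pair summed there were 2. Differences were positive for 9 of 10 members (51.3% of all tested genes), and the median log2 difference was 0.44, beside 0.01 over all genes tested. The groups did not overlap for 0 of 10 members, against 1.97% of all tested genes.

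The count of 3 depended on single libraries. It was 0 without any of knockout-labelled 2, knockout-labelled 4, wildtype-labelled 3 or wildtype-labelled 4. Without wildtype-labelled 2 it was 1, which was Hsp90aa1 and none of the 3. Without knockout-labelled 1 it was 7, with the 3 among them. Without both knockout-labelled 2 and 4, a fit chosen with their values known, the log2 differences were 0.10 (SE 0.49) for Hspa1a, 0.13 (SE 0.55) for Hspa1b and 0.14 (SE 0.44) for Hspb1. Those of Dnajb1, Hsph1 and Bag3 turned negative, to -0.09 (SE 0.16), -0.22 (SE 0.18) and -0.20 (SE 0.15). Hspe1, at 0.28 (SE 0.16), stayed near the 0.27 it had with all libraries. In that fit 0 of 10 members passed the adjusted threshold (0.00670% of genes tested in it, or 1 gene) and 0 of 10 reached an unadjusted p under 0.05 (6.06% of genes tested in it). Knockout-labelled 2 and 4 were singled out by high values of such genes. A fall without them follows from that choice, so this fit is a description and no test.

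**Figure D3:**
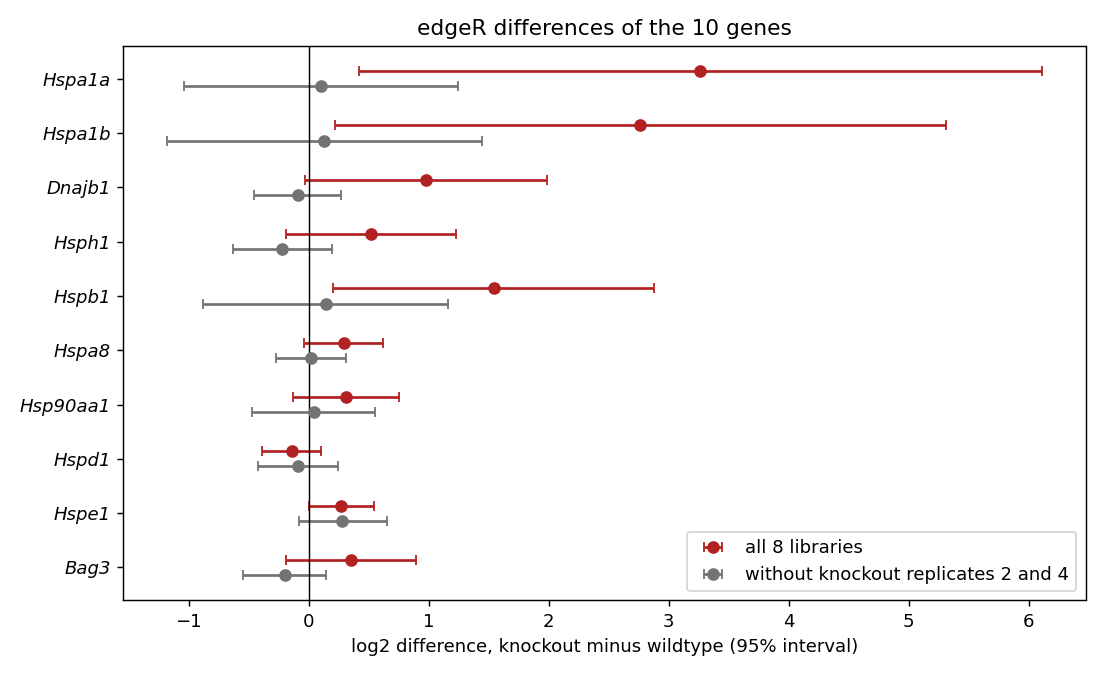
Log2 difference, knockout-labelled minus wildtype-labelled, with 95% interval from edgeR for the 10 genes, with all 8 libraries (red) and without knockout-labelled 2 and 4 (grey). With all libraries the estimates for Hspa1a and Hspa1b lie at 3.26 and 2.76 with wide intervals, and without the 2 libraries at 0.10 and 0.13. The 2 libraries were left out with their values known, so the grey estimates are a description.

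Library by library, knockout-labelled 2 and 4 held the 2 highest CPM values for 7 of the 10 members: Hspa1a, Hspa1b, Dnajb1, Hsph1, Hspb1, Hspa8 and Bag3. They did so for 7.17% of all tested genes. They were the 2 lowest for 0 of 10 members (7.04% of all tested genes). These libraries were singled out by the values of such genes, so the count is a description and no test was made of 2 libraries against 6. Knockout-labelled 4 alone was the highest library for 8 of 10 members, the 7 and Hsp90aa1 (14.2% of all tested genes). For 4 members the lower of the 2 libraries was at least 1.5 times the highest of the other 6, which held for 26 tested genes or 0.180%: Hspa1a, Hspa1b, Hspb1 and Dnajb1. On the log2 CPM scale with a prior count of 2 the gap was 2.53 for Hspa1a and 2.08 for Hspa1b, the widest and next widest of all tested genes, then 1.34 for Hspb1, 0.89 for Dnajb1, 0.53 for Bag3, 0.46 for Hsph1 and 0.22 for Hspa8. It was negative for Hsp90aa1 (-0.06), Hspe1 (-0.20) and Hspd1 (-0.34).

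**Figure D4:**
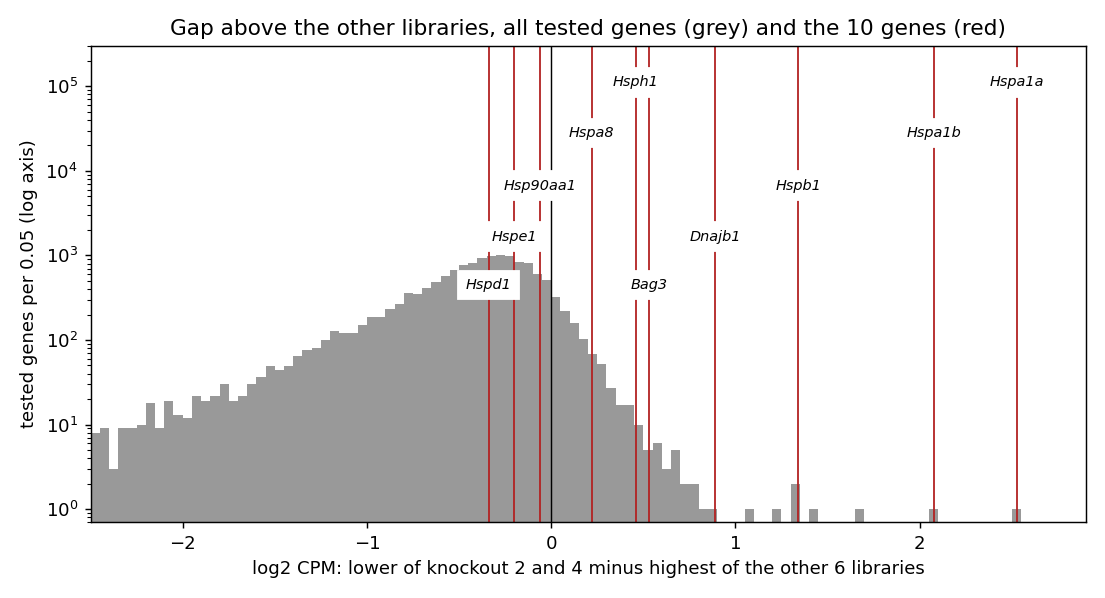
Histogram over all 14433 tested genes of the gap in log2 CPM between the lower of knockout-labelled 2 and 4 and the highest of the other 6 libraries (log vertical axis), with the 10 genes as red lines. The horizontal axis is cut on the left, so genes with the most negative gaps are not shown. Genes right of 0 have these as their 2 highest libraries. Hspa1a and Hspa1b have the widest gaps, while Hspd1, Hspe1 and Hsp90aa1 lie left of 0 among most other genes.

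Among non-members with at least 5 CPM on average, the 8 genes with the widest gaps by the same measure were Gm42743, Phlda1, Zbtb16, Rph3a, Ddit4, Sim2, Pmaip1 and Ptprn2. Gm42743, a long non-coding RNA, had 6.22, 19.1, 0 and 53.7 CPM in knockout-labelled replicates 1 to 4 and 7.69, 2.07, 2.84 and 3.68 CPM in wildtype-labelled replicates 1 to 4 (gap 1.30). Zbtb16, a zinc finger transcription factor, had 3.43, 14.3, 3.19 and 20.5 CPM in knockout-labelled replicates and 8.3, 1.25, 1.71 and 1.81 CPM in wildtype-labelled replicates 1 to 4 (gap 0.77), with wildtype-labelled 1 next after the 2 libraries, as for Hspa1a. The others had gaps of 0.80 for Phlda1, 0.74 for Rph3a, 0.67 for Ddit4, an inhibitor of mTORC1 signalling induced by stress, 0.65 for Sim2, 0.64 for Pmaip1, a pro-apoptotic BH3-only protein, and 0.59 for Ptprn2. None of these 8 passed the test by label (edgeR adjusted p = 0.957 for each).

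The spread among the members also differed within the wildtype-labelled libraries alone. The SD of log2 CPM there was 0.81 for Hspa1a and 0.81 for Hspa1b, each above that of 97.2% of tested genes, and 0.66 for Hspb1, above 95.1%. In contrast it was 0.08 for Hspa8, above 11.5% of tested genes, and 0.11 for Bag3, above 20.7%. Bag3 was therefore steady among the wildtype-labelled libraries and spread among the knockout-labelled ones (SD 0.59, above 91.9%). Hspd1 was steady in both groups, with an SD of 0.14 in knockout-labelled and 0.12 in wildtype-labelled libraries. Wildtype-labelled 1 was the highest of its group for Hspa1a, Hspa1b, Dnajb1, Hspb1, Hspa8 and Hspe1, wildtype-labelled 2 for Hsph1, Hsp90aa1 and Hspd1, and wildtype-labelled 3 for Bag3.

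Levels of different genes were compared as CPM per kilobase of exon of protein-coding transcripts (GENCODE M21, lengths of another annotation than the authors'). In libraries labelled knockout the order of means was Hspd1 (134 ± 13.6), Hspe1 (87.9 ± 6.65), Hsph1 (75.2 ± 36.7), Hspa1b (52.2 ± 57.6), Hspa8 (30.7 ± 6.8), Dnajb1 (29.3 ± 20), Hsp90aa1 (28 ± 5.93), Bag3 (24.5 ± 9.29), Hspa1a (20.1 ± 23.8) and Hspb1 (9.28 ± 6.67 CPM per kb, SD, n = 4). There the ranges of neighbours overlapped at every step but the first. In wildtype-labelled libraries it was Hspd1 (148 ± 12.6), Hspe1 (73.1 ± 12.1), Hsph1 (52.4 ± 9.93), Hspa8 (25.1 ± 1.41), Hsp90aa1 (22.6 ± 6.06), Bag3 (19.2 ± 1.51), Dnajb1 (14.9 ± 2.19), Hspa1b (7.71 ± 4.88), Hspb1 (3.2 ± 1.76) and Hspa1a (2.1 ± 1.33 CPM per kb, SD, n = 4). Here the ranges did not overlap from Hspd1 to Hspe1 and from Hsph1 to Hspa8, and overlapped between all other neighbours. The mitochondrial chaperonin thus led in both groups, and Hspa1b, Hspb1 and Hspa1a had the lowest values in wildtype-labelled libraries. For Hspa1a and Hspa1b the values per kb are too low by an unknown amount, since reads shared by the copies are not counted while the full exon length is, so their place in either order is uncertain. Reads placed more than once were left out for every gene, so both orders rest on uniquely placed reads. Annotated exons of Hspa8 overlap Snord14e by 90 bases, and reads there may have been counted as ambiguous. Together the 10 genes held 845, 1444, 957 and 1944 CPM in knockout-labelled replicates 1 to 4, against 947, 1061, 882 and 898 CPM in wildtype-labelled replicates 1 to 4.

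Related chaperones were read from lists chosen for their role, and 0 members of any list passed the test in either direction. In the HSP40 family 8 of 16 tested genes were positive, with a median log2 difference of 0.02. Dnajb4, a relative of Dnajb1, had 38, 65.2, 36.4 and 79.8 CPM in knockout-labelled replicates 1 to 4 and 46.3, 33, 43.7 and 36.8 CPM in wildtype-labelled replicates 1 to 4, and the same 2 libraries were highest for it. That held for 3 of the 16 genes, and for another 3 of the 16 these were the 2 lowest. Dnajb9, an HSP40 of the endoplasmic reticulum, was at 68.9 ± 7.19 CPM in knockout-labelled and 59.4 ± 2.25 CPM in wildtype-labelled libraries (log2 difference 0.21, SE 0.10). Among other HSP70 and HSP110 genes 5 of 10 were positive with a median of 0.00, and the abundant Hspa9 and Hspa5, of mitochondria and endoplasmic reticulum, differed by -0.03 (SE 0.09) and 0.09 (SE 0.17).

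Of 20 genes for HSP90 and its co-chaperones 18 were positive, with a median log2 difference of 0.11. Ahsa2, which belongs to the activators of the HSP90 ATPase, had 44.8, 72.8, 45.6 and 78.3 CPM in knockout-labelled replicates 1 to 4 and 45.8, 53.8, 37.8 and 42.5 CPM in wildtype-labelled replicates 1 to 4, with the same 2 libraries highest. That held for 2 of the 20 genes, and for another 2 of the 20 these were the 2 lowest. Hsp90ab1, the constitutive HSP90, was at 1505 ± 239 CPM in knockout-labelled and 1334 ± 264 CPM in wildtype-labelled libraries, with its highest values in knockout-labelled 4 (1753 CPM) and wildtype-labelled 2 (1700 CPM). Wildtype-labelled 2 had the most Hspa5 (1030 CPM) and Calr (1134 CPM), chaperones of the endoplasmic reticulum, of all 8. In the list of endoplasmic reticulum stress 10 of 16 genes were positive with a median of 0.06, and Sdf2l1 was at 12.6 ± 4.27 CPM in knockout-labelled and 7.41 ± 3.51 CPM in wildtype-labelled libraries. Knockout-labelled 2 and 4 were the 2 highest libraries for 2 of the 16 and the 2 lowest for 1. The 2 genes were Atf4 (162 and 191 CPM, at most 131 CPM in the others) and Ddit3 (27.8 and 15.1 CPM, at most 10.4 CPM in the others).

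Among small heat shock proteins 6 of 7 tested genes were positive, with a median log2 difference of 0.15. Cryab, abundant in the medulla, had 211, 222, 142 and 179 CPM in knockout-labelled replicates 1 to 4 and 130, 94.9, 139 and 112 CPM in wildtype-labelled replicates 1 to 4. Its groups did not overlap, but the knockout-labelled libraries 2 and 4 were not its 2 highest (log2 difference 0.66, SE 0.16; edgeR adjusted p = 0.957). Hspb8, a partner of Bag3, had 6.15, 19.5, 4.08 and 12.8 CPM in knockout-labelled replicates 1 to 4 and 18.7, 7.57, 7.02 and 8.4 CPM in wildtype-labelled replicates 1 to 4. For the cytosolic chaperonin TRiC 5 of 8 genes were positive with a median of 0.05, and for mitochondrial chaperones and proteases 2 of 10 with a median of -0.07.

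The regulators of the response varied little. Hsf1, the master factor, was at 33.4 ± 4.07 CPM in knockout-labelled and 35.4 ± 2.34 CPM in wildtype-labelled libraries (log2 difference -0.08, SE 0.11). Ubb, a polyubiquitin gene, was at 170 ± 5.76 CPM in knockout-labelled and 170 ± 13.1 CPM in wildtype-labelled libraries. In the list of HSF genes, Hsbp1 and ubiquitin 5 of 6 tested genes were positive with a median log2 difference of 0.05, and for none of the 6 were knockout-labelled 2 and 4 the 2 highest libraries.

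Immediate early genes, which answer to growth signals and to handling within minutes, were all positive, 15 of 15 tested, with a median log2 difference of 0.42. Jun, a subunit of AP-1, had 22.2, 64.8, 20.9 and 156 CPM in knockout-labelled replicates 1 to 4 and 46.7, 19.8, 17.9 and 20 CPM in wildtype-labelled replicates 1 to 4, with its 3 highest libraries in the order seen for Hspa1a. Knockout-labelled 2 and 4 were the 2 highest for 2 of the 15 immediate early genes (7.17% of all tested genes). The list's median log2 CPM minus the wildtype-labelled mean was 0.18, 0.30, -0.19 and 0.86 in knockout-labelled replicates 1 to 4. In wildtype-labelled replicates 1 to 4 it was 0.39, -0.03, -0.20 and -0.10. The part of the immediate early genes in the heat shock values was not tested. Klf6 was at 48.3 ± 10.2 CPM in knockout-labelled and 34.5 ± 3.92 CPM in wildtype-labelled libraries, and Dusp1, a MAP kinase phosphatase, at 50.6 ± 22.8 CPM in knockout-labelled and 33.3 ± 8.33 CPM in wildtype-labelled libraries. Oxidative stress genes were positive in 4 of 9. Gclc, an enzyme of glutathione synthesis, was at 319 ± 39.7 CPM in knockout-labelled and 470 ± 116 CPM in wildtype-labelled libraries (log2 difference -0.56, SE 0.17; edgeR adjusted p = 0.957), and Srxn1 at 68 ± 8.61 CPM in knockout-labelled and 58 ± 3.49 CPM in wildtype-labelled libraries. The cold-inducible RNA-binding protein genes Cirbp and Rbm3 differed by 0.07 (SE 0.24) and 0.13 (SE 0.16). Of 14 clock genes, which peak at different times of day, 7 were positive, with a median of 0.00. Knockout-labelled 4, the highest library for the HSP70 genes, stood apart in some of them together with wildtype-labelled 4, in which the HSP70 genes were low. Arntl, an activator of the clock, was at 24.3 CPM in knockout-labelled 4 and 20.4 CPM in wildtype-labelled 4, and at most 6.76 CPM in the other 6 libraries. Npas2, a partner of Arntl, was at 18.3 CPM in knockout-labelled 4 and 16.3 CPM in wildtype-labelled 4, and at most 4.19 CPM in the others. Dbp, a clock output gene, was at 18 CPM in knockout-labelled 4 and 34.1 CPM in wildtype-labelled 4, and at least 62.2 CPM in the others. These 3 genes were named after their values were seen, and the part of the clock genes in the heat shock values was not tested.

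**Figure D5:**
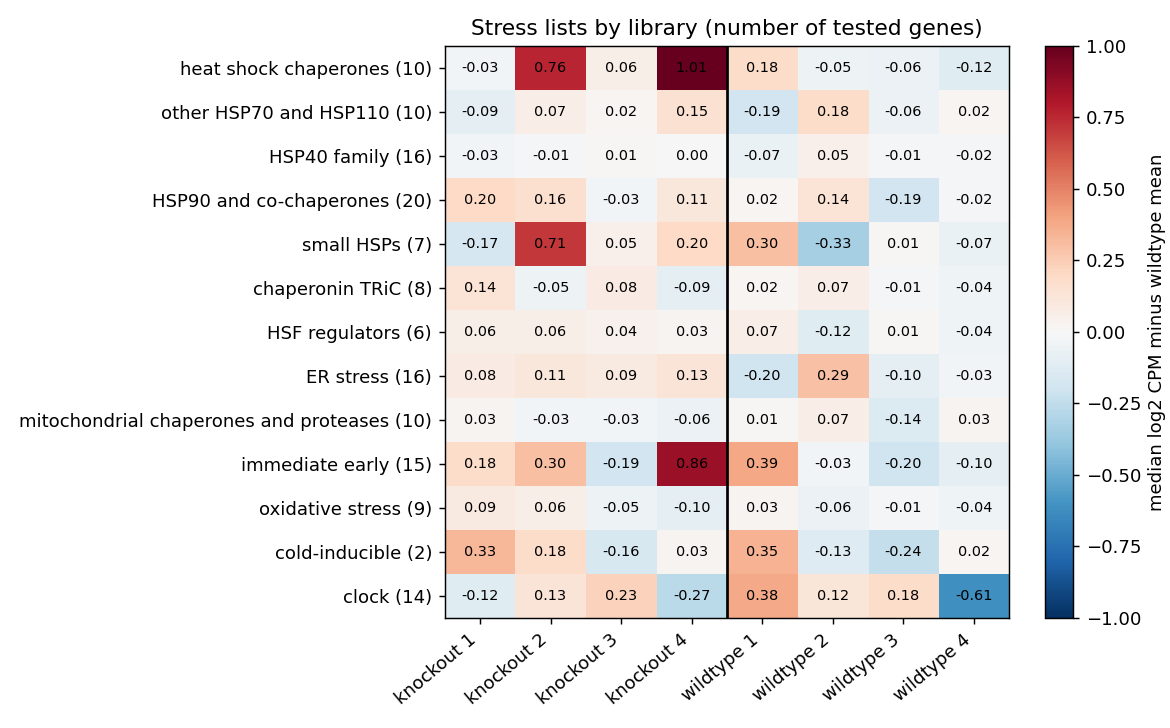
Median over each list's tested genes (number in brackets) of log2 CPM minus the wildtype-labelled mean, by library, knockout-labelled left of the line. The 10 heat shock chaperone genes are at 0.76 and 1.01 in knockout-labelled 2 and 4, and at 0.18 in wildtype-labelled 1. Immediate early genes are at 0.30 and 0.86 in knockout-labelled 2 and 4, and at 0.39 in wildtype-labelled 1. TRiC, HSF and mitochondrial lists stay within 0.14 of 0 in every library.

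Transcripts of other tissues moved with some of these libraries. The 4 tested adrenal markers summed to 10.7, 820, 5.64 and 10.8 CPM in knockout-labelled replicates 1 to 4 and 803, 4.82, 5.12 and 4.52 CPM in wildtype-labelled replicates 1 to 4, so knockout-labelled 4, the highest library for the HSP70 genes, was low in them. The brown fat markers Ucp1 and Cidea summed to 52.6, 119, 24.3 and 156 CPM in knockout-labelled and 133, 39.4, 42 and 82.2 CPM in wildtype-labelled replicates 1 to 4. The 3 libraries highest in this sum, and in Ucp1 alone, were also the 3 highest for Hspa1a, Hspa1b and Jun. Cidea alone was highest in wildtype-labelled 4 (29.8 CPM). It had 29.4 CPM in wildtype-labelled 1 and 28.8 and 27.1 CPM in knockout-labelled 2 and 4. The part of the brown fat markers in the heat shock values was not tested. Red cell markers (2 of 4 tested) summed to 1386, 295, 38.9 and 184 CPM in knockout-labelled and 288, 34.5, 28.6 and 66.4 CPM in wildtype-labelled replicates 1 to 4. Knockout-labelled 2 and wildtype-labelled 1, the libraries with adrenal transcripts, were left out in a fit added after seeing the data. The log2 difference was then 3.70 (SE 1.57) for Hspa1a and 1.67 (SE 0.61) for Hspb1 (edgeR adjusted p = 0.818 for each). Wildtype-labelled 1 was the highest of its group for both genes, so leaving it out lowers the wildtype-labelled mean whatever its adrenal share. The part of the adrenal markers in the heat shock values was not tested. Leukocyte markers, 4 of 4 tested, summed to 10.9 to 17.7 CPM in knockout-labelled and 13.2 to 18.4 CPM in wildtype-labelled libraries, and the skeletal muscle genes Acta1, Ckm and Myh4 were near 0 in all. Reads outside annotated genes made up 16.2%, 14.5%, 11.6% and 13.7% of counts in knockout-labelled and 14.4%, 12.4%, 12.6% and 13.0% in wildtype-labelled replicates 1 to 4.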

How the data were processed

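The deposited files hold whole-number counts of reads per Ensembl gene, not normalized, in a file for each library. STAR, HTSeq, edgeR and mm9 are named in the submitters' processing notes, the sources used here give neither versions nor the annotation, and per the deposited file names strand was ignored. Lines that name no gene were left out of library sizes: reads outside genes (11.6% to 16.2% of all counts), reads placed more than once (15.8% to 20.9%) and reads on overlapping genes (2.05% to 2.31%). Of 37583 identifiers 32860 matched a symbol in GENCODE M21, whose GRCm38 positions are given; nothing was converted from mm9. Counts of the 28 library pairs differed by 10.8 to 85.5 times sampling noise (chi-square per gene, over genes with at least 20 reads), so no library was a copy.

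The main test was edgeR 4.0.16 (R 4.3.3), quasi-likelihood, robust, two-sided, with TMM and filterByExpr (minimum count 10, total 15), genotype as the only term, fitted on all genes with Benjamini-Hochberg adjustment over 14433 genes and a threshold of 0.05. Alternatives used DESeq2 1.42.0, limma 3.58.1 voom, RLE and upper-quartile scaling, no filter, a replicate block, libraries left out and the Hspa1 pair summed. Named list genes are up to 3 with the lowest p and 2 with the highest level per list. The genes, lists and tests were chosen with earlier results of these data known. Sequences were read from RefSeq (GRCm38.p6) and aligned with Biopython 1.88. Figures used matplotlib 3.10.9.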

Additional observations from a re-analysis of the deposited data

Results flagged for a closer look

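Of 86 named genes screened in both groups, 20 group values had a single library far from the other 3 (Dixon's test at the 95% level, which flags about 1 in 20 groups by chance). Among the heat shock chaperone genes these were Hspd1, at 406 CPM in knockout-labelled 3 against 327 to 340 CPM in the other knockout-labelled libraries, and Dnajb1, at 58.1 CPM in wildtype-labelled 1 against 43.7 to 44.7 CPM in the other wildtype-labelled libraries. Hspa1a and Hspa1b were not among them, because 2 of the 4 knockout-labelled libraries were high.

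Wildtype-labelled 1 stood apart as highest of its group for Hspb8 (18.7 CPM), Jun (46.7 CPM), Phlda1 (13.8 CPM), Zbtb16 (8.3 CPM), S100a9 (4.08 CPM), the red cell genes Hba-a1 (252 CPM) and Alas2 (35.5 CPM), and the adrenal genes Star (335 CPM), Hsd3b1 (245 CPM) and Cyp21a1 (105 CPM). Knockout-labelled 2 stood apart for the same 3 adrenal genes, at 350 CPM for Star, 225 CPM for Hsd3b1 and 126 CPM for Cyp21a1. Among the knockout-labelled libraries alone, Hspa5 was highest in replicate 1 (886 CPM) and Cry1 lowest in replicate 3 (5.86 CPM). Among the wildtype-labelled libraries alone, Hspa9 was lowest in replicate 3 (916 CPM), Tef in replicate 4 (294 CPM) and Ptprn2 in replicate 2 (0.125 CPM, against 22 to 24.6 CPM in the other 3).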

How the results depend on the processing

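None of the 10 genes was called under any of the up to 17 alternatives per gene, with a lowest adjusted p of 0.39 (edgeR, Hspb1 without knockout-labelled 3). Over all genes DESeq2 called 4, leaving out 1 library in turn gave 0 to 2, and leaving out knockout-labelled 2 and 4 gave 1. The number of the 10 genes at an unadjusted p under 0.05 was 1 by limma-voom (Hspe1, not among the 3 of edgeR, none of which kept that level), 0 to 7 with 1 library left out, and 0 without knockout-labelled 2 and 4; the cause was not tested. In that last fit, added after seeing the data, Dnajb1 (-0.09), Hsph1 (-0.22) and Bag3 (-0.20) turned negative on the log2 scale, with 6 of 10 genes positive. Across alternatives the log2 difference ran from 0.10 to 3.78 for Hspa1a and from 0.13 to 3.29 for Hspa1b. Same-numbered libraries deviated together in replicates 1, 3 and 4 (correlations 0.226, 0.282 and 0.293) but not in replicate 2 (-0.23), so the numbers were not taken as pairs. With a replicate block 0 genes were called, 2 of the 10 had an unadjusted p under 0.05 (Hsp90aa1 and Hspe1, while Hspa1a, Hspa1b and Hspb1 did not), and the log2 difference of Hspa1a was 2.31. At this depth the scarcest of the 10, Hspb1, rests on 32 reads in its lowest library.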
